A study of Rattus norvegicus with 9 samples.

Results

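The 10 genes described here encode the NF-kB machinery itself: the subunits Nfkb1, Nfkb2, Rela, Relb and Rel, the inhibitor Nfkbia, the inhibitor-like co-regulator Bcl3, and the inhibitor kinase complex of Chuk, Ikbkb and Ikbkg. They were taken by gene symbol from tables of 18733 genes, and all 10 were found and passed the filter on low counts. Bcl3 passed it only through the PSCI libraries. The tables come from poly(A)-selected hippocampal RNA of 9 male rats that form 3 groups of 3, each rat sequenced as its own library. In the group with transcutaneous auricular vagus nerve stimulation (taVNS), rats with cognitive impairment after middle cerebral artery occlusion, a surgical stroke model, had the vagal branch of the outer ear stimulated for 14 days. In the group with post-stroke cognitive impairment (PSCI), rats with the same surgery and impairment received ordinary feeding only. Control rats were fed in the same ordinary way. Both stroke groups held only rats whose maze alternation and object recognition scores were under a limit stated as 20% of the control mean, and assignment to PSCI or taVNS was random. The labels do not state sham surgery in controls, sham stimulation in PSCI, or the hemisphere sampled, so occlusion, impairment and any unmatched handling cannot be told apart in PSCI against control. Likewise, stimulation and its handling cannot be told apart in taVNS against PSCI.

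NF-kB is a family of dimeric transcription factors that are held inactive in the cytoplasm by inhibitor proteins. In the canonical route, a kinase complex phosphorylates the inhibitor, which is then degraded, and the freed dimer enters the nucleus. The genes of the inhibitor IkB-alpha and of several subunits are themselves known NF-kB targets, and in brain the pathway is known from microglial and other inflammatory responses as well as from neurons. Because activation proceeds through phosphorylation, degradation and movement to the nucleus, transcript levels measure how much message is present and not whether the pathway is active. In a piece of tissue, more cells of a type and more RNA per cell cannot be told apart.

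In PSCI rats 6 of the 10 genes were higher than in control rats by the counts: Nfkb1, Nfkb2, Rela, Nfkbia, Ikbkb and Bcl3. Relb, Rel, Chuk and Ikbkg did not pass the test. In taVNS rats Nfkb1, Rela, Nfkbia and Ikbkb were lower than in PSCI rats, and no member differed between taVNS and control rats by the test. The counts and the RPKM values of the 4 genes that moved in both comparisons do not match in the PSCI libraries: the counts put them from 3.6-fold to 4.75-fold above control, and the RPKM values from 2.09 to 3.02 times above. Both tables gave the same direction and the same calls for these genes, so the size of the change depends on the table used.

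The promoters of the members that changed are shown because several of these genes are known to be driven by NF-kB. RefSeq promoter windows of the assembly GRCr8, covering 250 bases before and 50 bases from the annotated start, were found for 8 of the 10 members, all but Relb and Ikbkb. Capitals mark a match to the kappaB consensus on either strand. The windows shown are those of Nfkb1 (chr2:226805413-226805712, minus strand), Nfkb2 (chr1:255108124-255108423, plus strand), Nfkbia (chr6:78597023-78597322, minus strand), Bcl3 (chr1:88613506-88613805, minus strand) and, as a member that changed and holds no match, Rela (chr1:212354086-212354385, plus strand).
Nfkb1: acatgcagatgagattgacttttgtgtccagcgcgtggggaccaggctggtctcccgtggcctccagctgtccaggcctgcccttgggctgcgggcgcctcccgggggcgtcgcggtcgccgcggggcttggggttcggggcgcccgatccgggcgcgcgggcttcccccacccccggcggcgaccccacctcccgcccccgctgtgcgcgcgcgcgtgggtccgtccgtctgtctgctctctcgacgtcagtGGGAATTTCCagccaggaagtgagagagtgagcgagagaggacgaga
Nfkb2: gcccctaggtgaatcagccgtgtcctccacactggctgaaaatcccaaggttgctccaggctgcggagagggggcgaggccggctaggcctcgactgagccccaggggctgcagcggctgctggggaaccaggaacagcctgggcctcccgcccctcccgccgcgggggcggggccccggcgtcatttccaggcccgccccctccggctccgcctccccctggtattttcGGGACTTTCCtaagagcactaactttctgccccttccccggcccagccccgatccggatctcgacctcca
Nfkbia: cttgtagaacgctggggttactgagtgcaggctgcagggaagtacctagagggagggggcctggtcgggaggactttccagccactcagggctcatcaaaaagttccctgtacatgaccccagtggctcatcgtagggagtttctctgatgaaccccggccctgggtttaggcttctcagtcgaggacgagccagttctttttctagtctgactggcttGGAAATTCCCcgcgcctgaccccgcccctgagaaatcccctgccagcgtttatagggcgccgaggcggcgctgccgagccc
Bcl3: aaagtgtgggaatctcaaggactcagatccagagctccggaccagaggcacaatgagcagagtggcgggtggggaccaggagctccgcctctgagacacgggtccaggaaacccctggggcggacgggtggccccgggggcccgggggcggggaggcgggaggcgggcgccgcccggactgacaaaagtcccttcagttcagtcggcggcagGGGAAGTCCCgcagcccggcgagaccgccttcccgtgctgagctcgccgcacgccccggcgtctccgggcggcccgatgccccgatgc
Rela: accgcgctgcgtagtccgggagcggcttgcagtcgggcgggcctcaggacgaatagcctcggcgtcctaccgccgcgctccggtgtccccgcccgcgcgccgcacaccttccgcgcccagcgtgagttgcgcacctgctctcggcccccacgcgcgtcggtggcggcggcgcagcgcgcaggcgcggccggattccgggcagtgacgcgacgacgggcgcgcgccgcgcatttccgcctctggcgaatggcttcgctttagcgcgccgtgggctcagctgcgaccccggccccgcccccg
Counting the annotated first base as 0, the match lay at bases 3 to 12 in Nfkb1, -20 to -11 in Nfkb2, -31 to -22 in Nfkbia and -38 to -29 in Bcl3. Rel, which did not change by the test, had 4 overlapping matches at a pair of places, and Ikbkg, which also did not, had 1 match at bases 6 to 15. Rela and Chuk held none in these windows. A match was thus found in 6 of 8 members, and in 7.51% of 33469 rat promoter windows of the same length. Matches were present in members that changed and in members that did not, and they describe letters in a window, not binding.

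**Figure D1:**
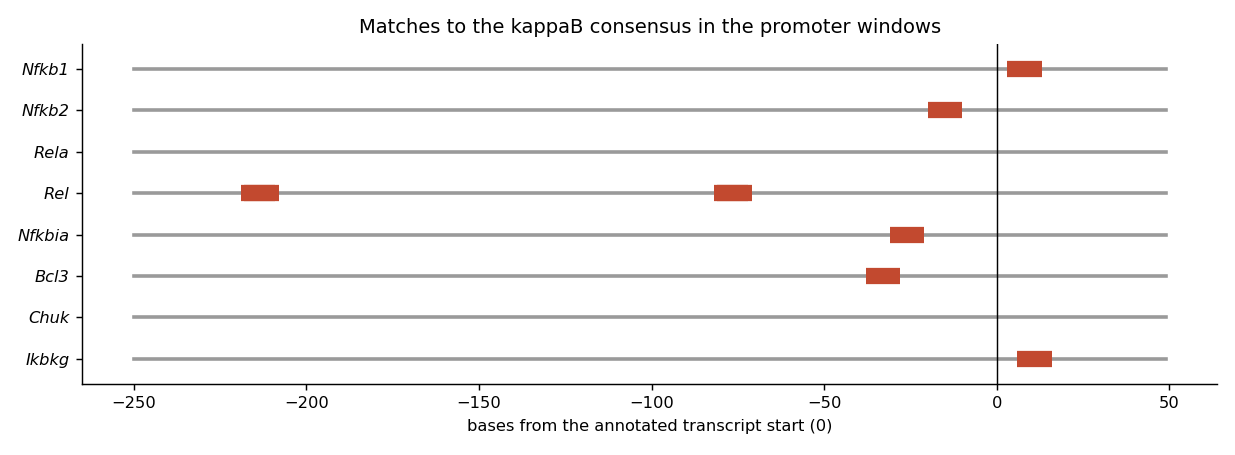
Promoter windows of the 8 members with a RefSeq window (grey lines, 5′ to 3′ along each gene) and matches to the kappaB consensus on either strand (red blocks); the x axis is the distance in bases from the annotated transcript start. Nfkb1, Nfkb2, Nfkbia, Bcl3 and Ikbkg each hold 1 match near the start, Rel holds 4 overlapping matches at a pair of places, and Rela and Chuk hold none.

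The libraries held 13747389 to 15415694 estimated counts, and a floor of 3 counts lay between 0.195 and 0.218 CPM, counts divided by library size. The 9 excitatory neuron markers of the hippocampus were above 0 in every library, none was called in any of the 3 comparisons, and their summed level was 5481 to 8175 CPM in taVNS, 3364 to 7831 CPM in PSCI and 5916 to 7741 CPM in control rats. The 14 microglia and macrophage markers, none at 0 in any library, summed to 318 to 399 CPM in taVNS, 582 to 947 CPM in PSCI and 213 to 297 CPM in control rats. Of these, 11 were higher in PSCI than in control rats, and 8 were lower and 1 higher in taVNS than in PSCI rats. The 7 astrocyte markers, none at 0, summed to 3743 to 4755 CPM in taVNS, 7672 to 10696 CPM in PSCI and 3343 to 4725 CPM in control rats, and 2 were called higher in PSCI than in control rats and 2 lower in taVNS than in PSCI rats. Gfap, the intermediate filament gene of astrocytes, had 854 to 1380 CPM in taVNS, 4095 to 7672 CPM in PSCI and 631 to 1196 CPM in control rats. Most of the summed rise in PSCI lay in Gfap. Over the 7 markers the median log2 change was 0.198 in PSCI against control rats and -0.289 in taVNS against PSCI rats. S100b had 378 to 892 CPM in PSCI, below the 966 to 1309 CPM of control rats, and 796 to 1120 CPM in taVNS. The part of these cell markers in the NF-kB results was not tested. The 10 meningeal and fibroblast markers stood apart in taVNS replicate 3 (1141 CPM summed) and PSCI replicate 2 (653 CPM), against 121 to 202 CPM in the other 7 libraries. PSCI replicate 2 also had the highest microglia and astrocyte sums of all libraries (947 and 10696 CPM) and the lowest excitatory neuron sum (3364 CPM).

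Per gene length, the order of the members in control rats was Nfkbia, Chuk, Rela, Ikbkb, Nfkb1, Ikbkg, Nfkb2, Rel, Relb and Bcl3, at mean RPKM levels (reads scaled for transcript length and library depth) that spanned 13.9 for Nfkbia to 0.0567 for Bcl3. In that order Nfkbia and Chuk overlapped, as did Chuk and Rela, Ikbkb and Nfkb1, and Rel and Relb. In taVNS rats the order was the same as in control rats. In PSCI rats Chuk came below Nfkbia, Rela, Ikbkb and Nfkb1, and Bcl3 at 3.12 ± 3.04 RPKM (SD, n = 3) overlapped its neighbours Nfkb2 and Relb. Chuk itself averaged 10.9 RPKM in taVNS, 11.5 RPKM in PSCI and 10.3 RPKM in control rats, and it was Rela, Ikbkb and Nfkb1 whose means moved past it. Single PSCI rats still overlapped between Nfkb1 (11.24 to 18.42 RPKM) and Chuk (10.62 to 12.37 RPKM).

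**Figure D2:**
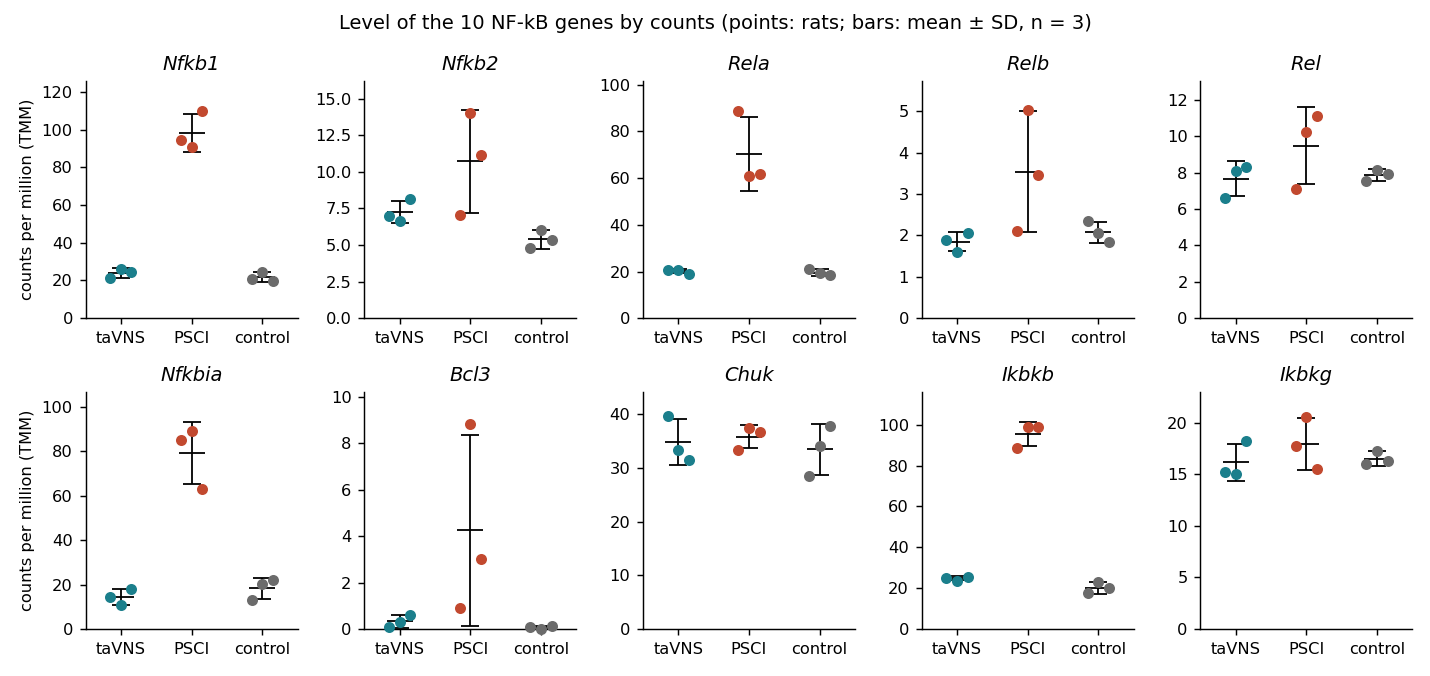
Level of each member by the counts, in CPM after TMM scaling (y axis, from 0, a separate scale for each gene), in taVNS, PSCI and control rats; points are single rats and bars are the mean ± SD of 3. Nfkb1, Rela, Nfkbia and Ikbkb have all 3 PSCI rats far above the other 6, while Chuk, Ikbkg and Rel overlap across the groups and Bcl3 has 1 PSCI rat far above the rest.

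Among the subunits, Nfkb1, which encodes the precursor of the DNA-binding subunit of the canonical dimer, had 302, 373 and 361 counts in the taVNS rats, 1384, 1422 and 1683 in the PSCI rats and 304, 346 and 265 in the control rats. The PSCI rats stood well above both other groups, which overlapped each other. In CPM, 6 of the 10 members had all 3 PSCI rats above all 3 control rats, where 16.2% of genes tested did, and 6 had all 3 taVNS rats below all 3 PSCI rats, where 15.2% did. The mean was 24 ± 2.54 CPM in taVNS, 98.3 ± 10.2 CPM in PSCI and 21.7 ± 2.59 CPM in control rats (SD, n = 3 each). By edgeR's quasi-likelihood test Nfkb1 was 4.54-fold higher in PSCI than in control rats (log2 fold change 2.18 ± 0.131, SE; Benjamini-Hochberg adjusted p = 3.95e-05 over all genes tested). In taVNS it was 4.1-fold lower than in PSCI (log2 fold change -2.04 ± 0.13; edgeR adjusted p = 5.61e-05). The RPKM values of Nfkb1 were 5.72, 6.90 and 6.91 in taVNS, 16.96, 11.24 and 18.42 in PSCI and 5.40, 6.40 and 5.19 in control rats. The PSCI rats were again the highest, but at 2.74 times the control mean, with a log2 change of 1.41 ± 0.191 on the log2(RPKM + 0.1) scale (limma adjusted p = 0.00381). PSCI replicate 2, with the middle deposited count, had the lowest RPKM of the 3.

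Rela encodes the transactivating partner in the canonical dimer. Its counts were 296, 296 and 280 in taVNS, 1303, 958 and 943 in PSCI and 305, 271 and 250 in control rats. The PSCI group was separate from both others, at 70.5 ± 15.9 CPM, against 20.2 ± 0.92 CPM in taVNS and 19.5 ± 1.37 CPM in control rats (SD, n = 3 each). Rela was 3.6-fold higher in PSCI than in control rats (log2 1.85 ± 0.155, edgeR adjusted p = 3.48e-04) and 3.49-fold lower in taVNS than in PSCI rats (log2 -1.8 ± 0.154, edgeR adjusted p = 5.42e-04). The RPKM of Rela was 9.82, 9.23 and 9.01 in taVNS, 19.48, 24.24 and 33.31 in PSCI and 9.41, 8.72 and 8.37 in control rats. Within the PSCI group the 2 tables ordered the same 3 rats in opposite ways: replicate 1 had the most counts and the lowest RPKM, and replicate 3 the fewest counts and the highest RPKM. The limma test on the RPKM values gave a log2 change of 1.5 ± 0.173 in PSCI against control rats (adjusted p = 0.00221) and -1.41 ± 0.173 in taVNS against PSCI rats (adjusted p = 0.00467).

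Nfkb2, the precursor of the DNA-binding subunit of the non-canonical dimer, moved less. It had 100, 95 and 119 counts in taVNS, 103, 220 and 171 in PSCI and 69, 85 and 73 in control rats, with RPKM of 1.81, 1.66 and 2.12 in taVNS, 1.91, 4.56 and 3.12 in PSCI and 1.18, 1.45 and 1.30 in control rats. All 3 PSCI rats were above all 3 control rats, and PSCI replicate 1 lay within the taVNS values. Nfkb2 was 1.99-fold higher in PSCI than in control rats (log2 0.996 ± 0.247, edgeR adjusted p = 0.0359), and the call was lost without PSCI replicate 2 (log2 0.761, adjusted p = 0.0756) or replicate 3 (adjusted p = 0.1), without any 1 control library (adjusted p up to 0.109), and without taVNS replicate 1 or 2 (adjusted p = 0.0544 and 0.055). It was also lost by limma-voom (adjusted p = 0.0683), in a fit of the 6 libraries compared (0.0899), by limma on log2(RPKM + 1) (0.0509) or on RPKM with no filter (0.0597), and without PSCI replicate 2 and taVNS replicate 3 (0.0934), which makes 12 of 20 alternatives. In taVNS against PSCI rats its log2 change was -0.564 ± 0.243 (edgeR adjusted p = 0.224), and without PSCI replicate 1 it was -0.791 (adjusted p = 0.0281). The taVNS rats lay above the control rats without overlap, at 7.26 ± 0.774 CPM against 5.38 ± 0.63 CPM (SD, n = 3 each), where 5.74% of all genes tested did so, and the edgeR adjusted p was 1.

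Relb, the transactivating partner of the non-canonical dimer, had 27, 23 and 30 counts in taVNS, 31, 79 and 53 in PSCI and 34, 29 and 25 in control rats. PSCI replicates 2 and 3 stood above all other rats, and replicate 1 lay among the controls and, in CPM, just above the taVNS rats. The log2 change was 0.765 ± 0.324 in PSCI against control rats (edgeR adjusted p = 0.179) and -0.933 ± 0.326 in taVNS against PSCI rats (edgeR adjusted p = 0.142). Without PSCI replicate 1 these were 1.02 (adjusted p = 0.0378) and -1.19 (adjusted p = 0.0258), and without replicate 2 they were 0.424 and -0.587. The RPKM of Relb was 0.98, 0.80 and 1.07 in taVNS, 1.07, 2.72 and 1.78 in PSCI and 1.17, 1.05 and 0.94 in control rats, which is the same order of rats within PSCI.

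Rel, the subunit known chiefly from lymphoid cells, had 94, 116 and 122 counts in taVNS, 104, 161 and 170 in PSCI and 109, 115 and 108 in control rats. The groups overlapped. Its log2 change was 0.27 ± 0.192 in PSCI against control rats (edgeR adjusted p = 0.429) and -0.305 ± 0.192 in taVNS against PSCI rats (edgeR adjusted p = 0.404). The RPKM of Rel was 0.93, 1.08 and 1.22 in taVNS, 0.94, 1.49 and 1.54 in PSCI and 1.01, 1.14 and 1.08 in control rats.

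Nfkbia encodes IkB-alpha, the inhibitor that retains the canonical dimer in the cytoplasm. It had 204, 153 and 266 counts in taVNS, 1247, 1399 and 968 in PSCI and 186, 283 and 299 in control rats. The PSCI rats were separate from the other 6, and the taVNS and control rats overlapped. The mean was 14.4 ± 3.74 CPM in taVNS, 79.1 ± 14 CPM in PSCI and 18.3 ± 4.81 CPM in control rats (SD, n = 3 each). Nfkbia was 4.33-fold higher in PSCI than in control rats (log2 2.11 ± 0.249, edgeR adjusted p = 0.00207) and 5.49-fold lower in taVNS than in PSCI rats (log2 -2.46 ± 0.253, edgeR adjusted p = 0.00177). The RPKM of Nfkbia was 11.30, 8.0 and 14.29 in taVNS, 32.97, 30.85 and 23.53 in PSCI and 9.64, 15.32 and 16.78 in control rats. By RPKM the PSCI mean was 2.09 times the control mean (limma log2 change 1.08 ± 0.257 on the log2(RPKM + 0.1) scale, adjusted p = 0.0337), and the taVNS mean was 0.385 times the PSCI mean (log2 change -1.4 ± 0.257, adjusted p = 0.0215).

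Bcl3, a nuclear member of the IkB family that binds the DNA-binding subunits, was close to the floor outside the PSCI group. It had 1, 4 and 9 counts in taVNS, 13, 139 and 46 in PSCI and 1, 0 and 2 in control rats. All 3 PSCI rats were above the other 6, and PSCI replicate 2 held most of the counts. That library had high meningeal markers, and also the highest microglia and astrocyte sums and the lowest excitatory neuron sum. With 198 counts in PSCI and 3 in control rats, the ratio of pooled counts, scaled by library totals without TMM, was 63 (95% counting interval 21.2 to 308). The fold by edgeR was 53.5. Without PSCI replicate 2 the ratio of pooled counts was 28 (9.13 to 140). The part of the meningeal and other cell markers in the Bcl3 counts was not tested beyond leaving that library out. The edgeR adjusted p was 0.0153, and the call was lost without any 1 of the control libraries (adjusted p up to 0.0657), by limma-voom (adjusted p = 0.058) and by limma on log2(RPKM + 1) (0.0513). In taVNS against PSCI rats, with 14 against 198 counts, Bcl3 did not pass the test (log2 -3.69 ± 0.924, edgeR adjusted p = 0.0516), but it was called by DESeq2 (adjusted p = 0.00301) and with no filter on low counts (0.0482). Without PSCI replicate 1 the adjusted p was 0.00834 and without PSCI replicate 2 the log2 change was -2.56 (adjusted p = 0.0993). In taVNS against control rats the ratio was 4.67 (1.3 to 25.4) on 14 against 3 counts, and it was 2.49 (0.485 to 16.1) without taVNS replicate 3, the other library with high meningeal markers. The RPKM of Bcl3 was 0.05, 0.22 and 0.41 in taVNS, 0.62, 6.50 and 2.23 in PSCI and 0.06, 0.00 and 0.11 in control rats.

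The kinase complex did not move as a unit. Ikbkb, the catalytic subunit of the canonical route, had 359, 338 and 373 counts in taVNS, 1300, 1552 and 1514 in PSCI and 252, 324 and 272 in control rats. The 3 groups did not overlap, and the PSCI rats were far above the others. The mean was 24.8 ± 0.982 CPM in taVNS, 95.4 ± 5.92 CPM in PSCI and 20.1 ± 2.78 CPM in control rats (SD, n = 3 each). Ikbkb was 4.75-fold higher in PSCI than in control rats (log2 2.25 ± 0.116, edgeR adjusted p = 1.52e-05) and 3.85-fold lower in taVNS than in PSCI rats (log2 -1.95 ± 0.114, edgeR adjusted p = 3.21e-05). The RPKM of Ikbkb was 8.37, 7.60 and 8.42 in taVNS, 18.94, 19.93 and 18.55 in PSCI and 5.5, 6.95 and 6.54 in control rats, which put the PSCI mean at 3.02 times the control mean (limma log2 change 1.59 ± 0.116, adjusted p = 2.67e-04). In taVNS against control rats the log2 change by counts was 0.3 ± 0.114, with an unadjusted p of 0.0263 and an adjusted p of 1 in edgeR.

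Chuk, the catalytic subunit that also serves the non-canonical route, had 565, 477 and 459 counts in taVNS, 490, 586 and 561 in PSCI and 412, 482 and 514 in control rats. Its log2 change was 0.098 ± 0.132 in PSCI against control rats (edgeR adjusted p = 0.703) and -0.0418 ± 0.132 in taVNS against PSCI rats (edgeR adjusted p = 0.897). The RPKM of Chuk was 12.61, 10.01 and 9.94 in taVNS, 10.62, 12.37 and 11.38 in PSCI and 8.57, 10.51 and 11.70 in control rats. All groups overlapped in both tables.

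Ikbkg, the regulatory scaffold of the complex, had 217, 214 and 267 counts in taVNS, 260, 323 and 238 in PSCI and 231, 244 and 222 in control rats. Its log2 change was 0.12 ± 0.136 in PSCI against control rats (edgeR adjusted p = 0.641) and -0.153 ± 0.136 in taVNS against PSCI rats (edgeR adjusted p = 0.574). The RPKM of Ikbkg was 3.4, 3.62 and 4.07 in taVNS, 3.66, 4.62 and 3.68 in PSCI and 3.30, 3.64 and 3.66 in control rats. These values overlapped across the groups, so within the complex the counts of 1 of 3 subunits changed.

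Read against all genes, 6 of 10 members were called in PSCI against control rats, all higher, where 9.85% of the 14840 genes tested were called and 7.71% were called higher. The median log2 change was 1.42 over the members and -3.68e-05 over all genes tested. Bcl3, 1 of the 6, passed the filter on low counts only through PSCI, where it is high. Its part in the 6 of 10 and in the median leans on that filter. By RPKM the same 6 members were called, where 8.16% of 16119 genes were called and 7.1% called higher. In taVNS against PSCI rats 4 of 10 members were called, all lower, where 5.75% of all genes tested were called and 4.91% were called lower, and the medians were -1.37 over the members and -0.00151 over all genes. DESeq2 called 5 members in this comparison, Bcl3 being the other one. By RPKM the same 4 were called, where 4.06% of genes were called and 3.56% called lower. In taVNS against control rats edgeR called 0 of 10 members and 0 of 14840 genes (0%), and at an unadjusted p under 0.05 it had 1 member, Ikbkb, and 557 genes (3.75%), while DESeq2 called 0 members and 7 genes. The PSCI libraries enter the first 2 of these comparisons, so those are not independent.

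**Figure D3:**
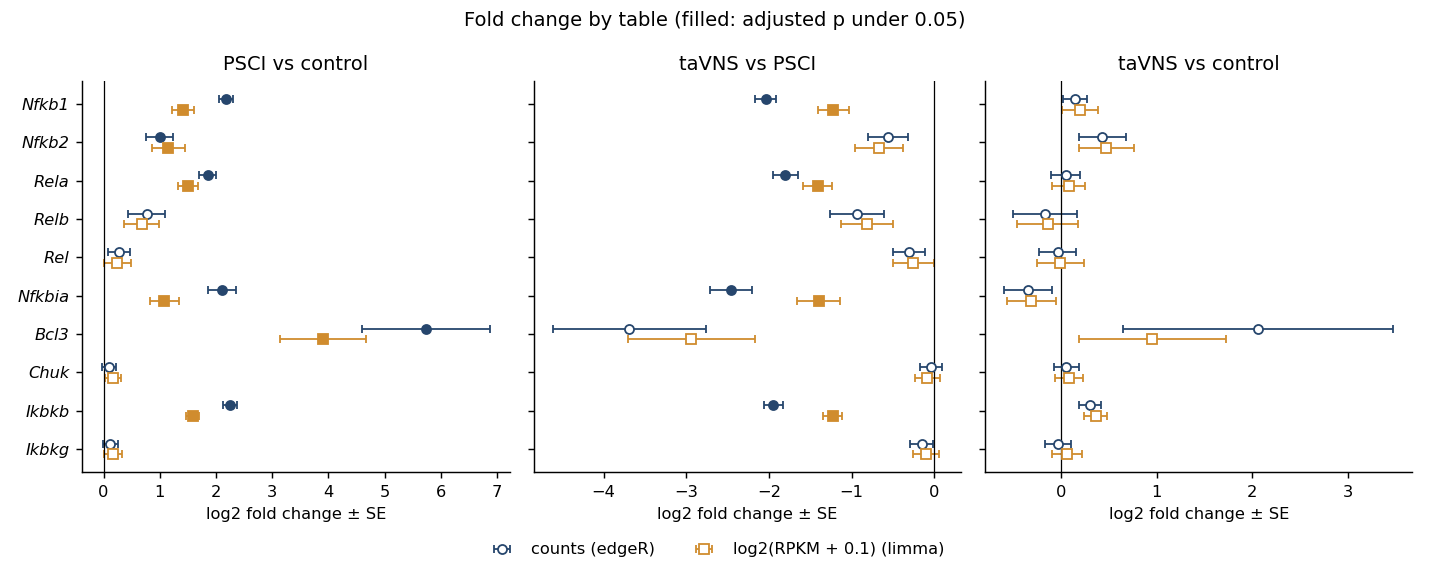
Log2 fold change ± SE of each member in PSCI against control, taVNS against PSCI and taVNS against control rats, by counts (blue circles, edgeR) and by log2(RPKM + 0.1) (orange squares, limma); filled symbols have an adjusted p under 0.05. For Nfkb1, Rela, Nfkbia and Ikbkb the count-based change is the larger in both comparisons that involve PSCI, and the symbols of the tables lie together in taVNS against control.

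The 2 deposited tables were then compared library by library. For a gene of fixed length, log2 CPM minus log2 RPKM should be constant, so this difference was centred on the control libraries of each gene and is called the gap. In the taVNS and control libraries the gap lay between -0.0448 and 0.0621 for Nfkb1, Rela, Nfkbia and Ikbkb. In PSCI replicates 1, 2 and 3 it was 0.557, 1.18 and 0.661 for Nfkb1, 0.985, 1.24 and 1.05 for Nfkbia, and 0.576, 0.747 and 0.767 for Ikbkb. For Rela it was 1.06, 0.289 and -0.24, so the counts exceeded what the RPKM gives in a pair of rats and fell short of it in the third. Nfkb2 had small gaps of the opposite sign, -0.143, -0.316 and -0.179. The gaps of Relb, Rel and Chuk in PSCI stayed between -0.0381 and 0.0601, and those of Ikbkg between -0.129 and 0.0661, with -0.194 in taVNS replicate 2. Bcl3 had gaps of 0.223, 0.24 and 0.14 in PSCI, on few counts, and up to 0.347 in taVNS.

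**Figure D4:**
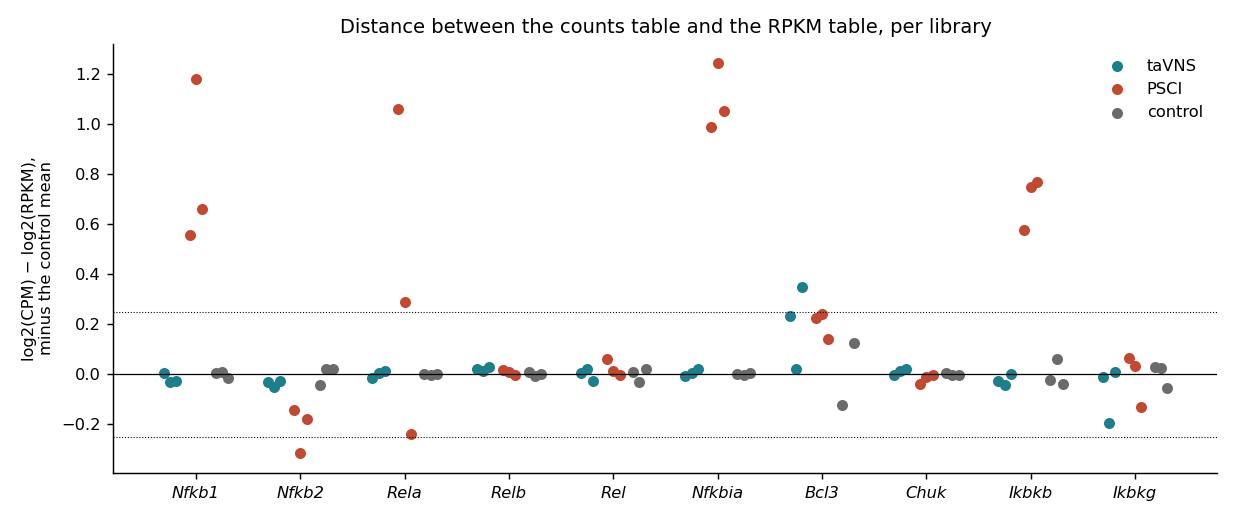
Gap between the 2 deposited tables for each member, as log2(CPM) minus log2(RPKM) less the control mean (y axis); each point is 1 library of taVNS, PSCI or control rats, and dotted lines mark a gap of 0.25 either way. The PSCI libraries of Nfkb1, Nfkbia and Ikbkb lie between 0.557 and 1.24, those of Rela are spread between -0.24 and 1.06, and the taVNS and control libraries of these 4 genes lie near 0.

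In counts, the RPKM values at the counts per RPKM of control rats would correspond to 941, 628 and 1065 counts of Nfkb1 in PSCI replicates 1, 2 and 3, against the 1384, 1422 and 1683 deposited. For Rela they correspond to 625, 784 and 1114, against 1303, 958 and 943 deposited. For Nfkbia they correspond to 630, 594 and 468, against 1247, 1399 and 968 deposited, and for Ikbkb to 872, 925 and 890, against 1300, 1552 and 1514. All of these figures remain above the taVNS and control counts of the same genes. Gaps of this kind were uncommon: over the 14192 genes that could be examined, 1.48%, 2.03% and 1.67% had a gap past 0.25 either way in PSCI replicates 1, 2 and 3, 1.02% to 1.54% in the taVNS libraries and 0.528% to 0.634% in the control libraries. Only 74 genes (0.521%) were past 0.25 in all 3 PSCI libraries. Of the 9 members that could be examined, all but Bcl3, 4, 5 and 3 were past 0.25 in PSCI replicates 1, 2 and 3, and 0 in any taVNS or control library. The 4 members with gaps past 0.5 in a PSCI library were called in both comparisons that involve PSCI, while of the other 6 members Nfkb2 and Bcl3 were called in PSCI against control and 0 in taVNS against PSCI. The files do not give the gene lengths used in each library, and where the gaps come from was not tested.

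Genes were searched for the pattern most like that of each member, as the highest Pearson correlation of log2 CPM over the 9 libraries among 13473 genes. These correlations describe 9 libraries in 3 groups and were not tested. Nearest to Nfkb1 were Ulk1 (0.9941), a kinase that starts autophagy, and Tirap and Traf6, adaptors of Toll-like receptor signalling. Nearest to Rela were Atg5 (0.9922), Becn1 and Map1lc3a, which take part in forming autophagosomes. Nearest to Ikbkb were Ulk1 (0.9954), Tirap and Nfkb1, and nearest to Nfkbia were Sh3d21 (0.9737), Atg12 and Crip2. Of these 12 nearest places, 10 were held by genes whose tables also differ, with a gap past 0.25 either way in a PSCI library. For the other 6 members it was 0 of 18, with Esyt1 (0.9902) nearest to Nfkb2, Gng5 (0.9839) nearest to Relb and Primpol (0.9823) nearest to Bcl3. Taken singly, PSCI replicates 1, 2 and 3 had such a gap in 1.48%, 2.03% and 1.67% of the genes examined. The nearest genes were counted by a gap in any of the 3, for which the share is at least the largest of these. The 0 of 18 is near these shares. Tirap, near both Nfkb1 and Ikbkb, had PSCI gaps from -0.346 to 0.157, past 0.25 only on the negative side. On log2(RPKM + 0.1), a search added after the data were seen, 4 of 12 and 0 of 18 were such genes. On that scale Bcl2a1 (0.9603), a survival gene and known NF-kB target, was nearest to Nfkb1, Fmnl2 (0.9918) to Rela, Sema3d (0.9572) to Nfkbia, and Ulk1 (0.9919) again to Ikbkb.

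Around the members, 4 lists of pathway genes were read by the same fit. None of the 17 other inhibitors and modulators was called in PSCI against control rats or in taVNS against PSCI rats by edgeR or by limma on RPKM. At an unadjusted edgeR p under 0.05 there were 3 (Nfkbiz, Tnip2 and Nkiras1) and 1 (Nfkbiz), and DESeq2 called 0 and 1. Without PSCI replicate 1 edgeR called Tnip2 in the first comparison and Nfkbiz and Tnip2 in the second. Nfkbib and Nfkbie, which encode further cytoplasmic inhibitors, had log2 changes of -0.0796 ± 0.141 and 0.0763 ± 0.198 in PSCI against control rats (edgeR adjusted p = 0.784 and 0.857). Nfkbiz, a nuclear IkB family member, had 39, 26 and 37 counts in taVNS, 60, 165 and 68 in PSCI and 46, 55 and 44 in control rats. All PSCI rats were above the other 6, yet Nfkbiz missed the threshold (log2 0.886 ± 0.368, edgeR adjusted p = 0.171 in PSCI against control rats; -1.43 ± 0.377, adjusted p = 0.0618 in taVNS against PSCI rats). Tnfaip3, the ubiquitin-editing feedback inhibitor, had a log2 change of 0.317 ± 0.2 in PSCI against control rats (edgeR adjusted p = 0.368). Of Nfkbia and these 17 genes, edgeR thus called only Nfkbia, one of the genes whose tables differ.

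Of 29 upstream kinases and adaptors, 5 were called higher in PSCI than in control rats and 2 lower in taVNS than in PSCI rats, with median log2 changes of 0.137 and -0.061 over the list. Over all genes tested 7.71% were called higher and 4.91% lower in these comparisons. Myd88, the adaptor of most Toll-like receptors, was 4.8-fold higher in PSCI than in control rats by edgeR (log2 2.26 ± 0.173, adjusted p = 1.96e-04), and its RPKM mean was 2.58 times that of control rats. Traf6, the ubiquitin ligase downstream of it, was 4.41-fold higher (log2 2.14 ± 0.0901, edgeR adjusted p = 1.24e-05) and 3.08 times by RPKM. Both were lower in taVNS than in PSCI rats (log2 -2.21 ± 0.172 and -2.22 ± 0.0903, edgeR adjusted p = 2.79e-04 and 8.98e-06). Their tables differ in PSCI as well, with gaps of 1.07, 0.425 and 1.41 for Myd88 and 0.691, 0.254 and 0.801 for Traf6. Myd88 also had a gap of -0.459 in taVNS replicate 2. Card9 (2.87-fold), Tradd (2.14-fold) and Ripk2 (1.41-fold), which link immune and death receptors to the kinase complex, were called higher in PSCI than in control rats by edgeR, and the calls were lost in 5, 10 and 10 of 20 alternatives. Ripk2 was named after its values were seen. With the replicate number as a block, 3 genes of the list were called in PSCI against control rats. By edgeR Card9, Tradd and Ripk2 were not called in taVNS against PSCI rats, where DESeq2 called Tradd and so did edgeR without PSCI replicate 1. The kinases Map3k14 (log2 0.365 ± 0.227), Ikbke (0.12 ± 0.335) and Tbk1 (0.00905 ± 0.0985) did not pass the test in PSCI against control rats, with edgeR adjusted p of 0.361, 0.87 and 0.97. Without PSCI replicate 2 and taVNS replicate 3, the number of called genes on this list was 2 in PSCI against control and 2 in taVNS against PSCI rats. With any 1 library left out it was 2 to 8 in PSCI against control rats and 2 to 4 in taVNS against PSCI rats, the highest in both without PSCI replicate 1.

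Of the 18 receptors and ligands found, 13 were tested, and 9 were higher in PSCI than in control rats, where 7.71% of all genes tested were, with a median log2 change of 1.47 over those tested. Of those called, Tnf, Tnfsf13b and Cd40 passed the filter on low counts only through PSCI, the group where they are high. The counts of genes called on this list and its medians therefore lean partly on that filter. Tnf, the cytokine ligand, had 3, 2 and 3 counts in taVNS, 12, 11 and 14 in PSCI and 2, 1 and 1 in control rats. The PSCI rats did not overlap the others, but all levels were low (log2 2.99 ± 0.477, edgeR adjusted p = 0.00642 in PSCI against control rats; -2.08 ± 0.427, adjusted p = 0.0258 in taVNS against PSCI rats). The second call was lost in 10 of 20 alternatives, DESeq2 among them (adjusted p up to 0.117). Il1b, with 3, 5 and 2 counts in taVNS, 12, 20 and 9 in PSCI and 3, 1 and 1 in control rats, was under the filter on counts and was called on log2(RPKM + 0.1) by limma (adjusted p = 0.00555 in PSCI against control rats and 0.0324 in taVNS against PSCI rats). Its RPKM was 0.21, 0.32 and 0.11 in taVNS, 1.07, 1.39 and 1.19 in PSCI and 0.19, 0.07 and 0.00 in control rats. The PSCI mean of Il1b was 14 times the control mean by RPKM and 7.63 times by CPM. For Tnf these were 12.3 and 8.62 times, so the tables differ for both genes, on few counts. The B cell survival factor Tnfsf13b (7.73-fold), the lipopolysaccharide receptor Tlr4 (6.3-fold), the tumour necrosis factor receptor Tnfrsf1a (4.03-fold) and Tlr2 (2.92-fold) were higher in PSCI than in control rats. The Tlr2 call was lost in 10 of 20 alternatives, including limma-voom and without PSCI replicate 2 or 3 (adjusted p up to 0.109), and that of Tnfrsf1a was lost without control replicate 2 or 3 (adjusted p up to 0.0604). In taVNS rats 6 genes were lower than in PSCI rats, where 4.91% of all genes tested were, among them Tnfsf13b (4.37-fold lower), Tlr4 (4.28-fold), Tnfrsf1a (3.24-fold) and Tnfrsf1b (2.39-fold). The calls of Tnfrsf1a and Tnfrsf1b in taVNS against PSCI rats were each lost in 14 of 20 alternatives, including limma-voom and every fit of RPKM (adjusted p up to 0.14 and 0.149), and that of Tnfsf13b in 4 of 20 (adjusted p up to 0.109). Tlr4 has gaps of 0.715, 0.357 and 1.48 between its tables in PSCI. By RPKM it was 3.7 times as high in PSCI as in control rats, and it was not called in taVNS against PSCI rats (log2 change -1.16 ± 0.335, limma adjusted p = 0.0944). By RPKM 3 of 16 receptors and ligands were called lower in taVNS than in PSCI rats. Without PSCI replicate 2 and taVNS replicate 3, 5 were called higher in PSCI than in control rats and 2 lower in taVNS than in PSCI rats. With any 1 library left out these counts ran from 3 (without control replicate 3) to 10, and from 1 (without PSCI replicate 3 or taVNS replicate 1 or 2) to 7.

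Of the 30 known NF-kB target genes found, 23 were tested, 5 were higher in PSCI than in control rats and 4 were lower in taVNS than in PSCI rats, and none was called in the opposite direction. Over all genes tested 7.71% were called higher and 4.91% lower in these comparisons. Among the called targets, Ccl2 and Lcn2 passed the filter on low counts only through PSCI, where they are high. The counts of called targets and the medians of the list therefore lean partly on that filter. Ccl2, a monocyte-attracting chemokine, had 0, 0 and 1 counts in taVNS, 13, 323 and 131 in PSCI and 1, 4 and 1 in control rats, and it was called in both comparisons (edgeR adjusted p = 0.0135 in PSCI against control rats and 0.0148 in taVNS against PSCI rats). Its ratio of taVNS to PSCI, on 1 against 467 counts, was 0.00225 (95% counting interval 5.68e-05 to 0.0126). That ratio was 0.00488 without PSCI replicate 2, 0.00342 without taVNS replicate 2, 0.00334 without taVNS replicate 1 and at least 99.3-fold lower, against 3 counts over the group, without taVNS replicate 3. The call in taVNS against PSCI rats was lost by limma-voom, in a fit of the 6 libraries, without PSCI replicate 2 and taVNS replicate 3 together and without any 1 taVNS library (adjusted p up to 0.12), and the call in PSCI against control rats by limma-voom and without any 1 control library (adjusted p up to 0.172). Lcn2, a secreted iron-scavenging protein, had 5, 5 and 11 counts in taVNS, 70, 428 and 201 in PSCI and 4, 8 and 4 in control rats. Both genes were highest in PSCI replicate 2, as Bcl3 was. Without that library the log2 change of Lcn2 was 4.53 in PSCI against control rats, set beside 5.28 ± 0.701 with it, and -4.18 in taVNS against PSCI rats, set beside -4.93 ± 0.678 (edgeR adjusted p = 0.00199 and 0.00393 without it); the second call was lost by limma-voom (adjusted p = 0.0688). Bcl2a1, with 11, 13 and 15 counts in taVNS, 79, 64 and 83 in PSCI and 12, 8 and 8 in control rats, did not follow that library: it was 7.41-fold higher in PSCI than in control rats (log2 2.89 ± 0.28, edgeR adjusted p = 8.44e-04) and 5.46-fold lower in taVNS than in PSCI rats (log2 -2.45 ± 0.27, edgeR adjusted p = 0.00247). The protease gene Plau, also highest in PSCI replicate 2, was 7.08-fold higher in PSCI than in control rats (log2 2.82 ± 0.707, edgeR adjusted p = 0.0372), and the call was lost in 13 of 20 alternatives (adjusted p up to 0.137), with a log2 change of 2.13 (adjusted p = 0.079) without PSCI replicate 2 and 3.64 as the highest with 1 library left out. The adhesion molecule Icam1 was 2.58-fold lower in taVNS than in PSCI rats (log2 -1.37 ± 0.309, edgeR adjusted p = 0.0368), and this call was also lost in 13 of 20 alternatives, every fit of RPKM included (adjusted p up to 0.139). The median log2 change over the targets tested was 0.835 in PSCI against control rats and -0.625 in taVNS against PSCI rats. Without PSCI replicate 2 and taVNS replicate 3, 7 targets were called in PSCI against control rats and 2 in taVNS against PSCI rats. With any 1 library left out there were 3 to 9 and 2 to 8, the highest in both without PSCI replicate 1.

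**Figure D5:**
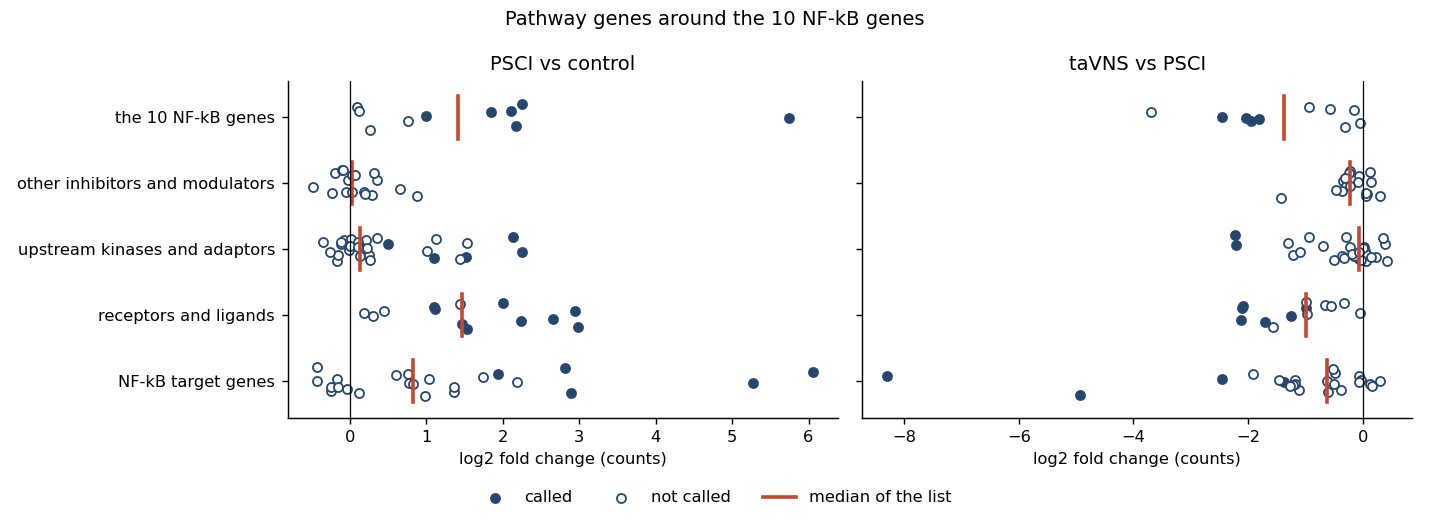
Log2 fold change by counts of the 10 NF-kB genes and the tested genes of the 4 pathway lists in PSCI against control rats and in taVNS against PSCI rats; filled points were called by edgeR (adjusted p under 0.05), open points were not, and the red bar is each list's median. None of the other inhibitors is called, and they range over -0.481 to 0.886 and -1.43 to 0.295 with medians of 0.0327 and -0.215, while the receptors and ligands have their median at 1.47 and -0.995.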

How the data were processed

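The authors deposited 2 tables for each library. The first table deposited by the authors holds an expected count per gene, an estimate of its reads that need not be whole and is not scaled for depth or length; all 90 values of the 10 members were whole, and values were rounded. The other holds RPKM, scaled by the authors for gene length and depth and deposited with 2 decimals. The build mRatBN7.2 and the tools RSEM 1.2.8 and HISAT2 2.0.4 are named per the submitters' processing notes; the role of each tool, the annotation, any filter and strand use in counting are not given in the sources used here. The protocol for RNA mentions a mouse, although the organism is given as rat throughout.

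Counts were filtered with filterByExpr (14840 genes), scaled by TMM and tested with the quasi-likelihood test of edgeR 4.0.16 in R 4.3.3, in 1 fit of all 9 libraries on group (6 residual degrees of freedom). Calls are at a Benjamini-Hochberg adjusted p under 0.05 over all genes, with no fold limit. The edgeR test gives no SE, so the SE beside its log2 changes is the absolute change divided by the square root of the F statistic. RPKM was tested with limma 3.58.1 (trend) on log2(RPKM + 0.1) for 16119 genes with a mean RPKM of at least 0.1, a scale that understates the change of low genes. DESeq2 1.42.0 served as an alternative, with other settings, libraries left out and a replicate term. The tests were tried on simulated data. Intervals at the 95% level, taken on the pooled counts of each group, and the floor of 3 counts cover counting error only. They leave out the spread between rats, and no molecular identifiers mark the reads. Each library is labelled as its own rat. In the fits of all 9 libraries, p-values judge a change against the spread between rats within groups, estimated over all 3 groups of 3.

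The members and the 4 pathway lists (96 genes, 94 found) were chosen with earlier results of these data known. All members are named, and per list the up to 4 called, non-overlapping genes with the largest change and a mean of at least 1 CPM, plus Nfkbib, Nfkbie, Nfkbiz, Tnfaip3, Map3k14, Ikbke, Tbk1, Tnf and Il1b. Ripk2, Tnip2 and Nkiras1 were named after their values were seen. For each member the 3 most correlated genes with a mean of at least 1 CPM and a named locus were taken. Genome positions are those of RefSeq promoters on GRCr8 and were not joined to the counts, which use another build.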

Additional observations from a re-analysis of the deposited data

How the results depend on the processing

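Nfkb1, Rela, Nfkbia and Ikbkb kept their direction and their calls in PSCI against control and in taVNS against PSCI rats under each of the 19 alternatives that gave them a value. Their adjusted p reached at most 0.00557, 0.00653, 0.042 and 6.73e-04 in PSCI against control rats, and at most 0.0157, 0.0107, 0.0271 and 0.00197 in taVNS against PSCI rats. Members called were 6 in PSCI against control rats (4 to 7 with 1 library left out) and 4 in taVNS against PSCI rats (4 to 7, with 7 without PSCI replicate 1). They were 2 and 0 when the 188 genes whose tables disagree by group were left out, which by construction removes these 4 members. Genes called in PSCI against control rats numbered 1461, against 2278 by DESeq2, 806 in a fit of the 6 libraries compared, and 548 (without control replicate 3) to 2255 (without PSCI replicate 1) with 1 library left out. In taVNS against PSCI rats they numbered 854, against 1560 by DESeq2, 480 by limma-voom, 250 in a fit of the 6 libraries, 361 without PSCI replicate 2 and taVNS replicate 3, and 172 (without taVNS replicate 1) to 1707 (without PSCI replicate 1) with 1 library left out. In taVNS against control rats the count was 0, against 7 by DESeq2, 1 by limma on RPKM with no filter, 1 without PSCI replicate 2 and taVNS replicate 3, and 0 to 1 with 1 library left out (1 without taVNS replicate 3). The cause of these shifts was not tested. Replicate numbers did not pair the rats by the rule used: correlations of same-numbered deviations ran from -0.468 to 0.2552, and 2 of 6, 1 of 6 and 3 of 6 libraries lay closest to their own number in PSCI against control, taVNS against PSCI and taVNS against control. With the replicate number as a block, genes called were 1084, 518 and 0 in these comparisons, and members called were 6, 4 and 0. Depth limits Bcl3, Tnf and Il1b, which lie at or near the floor of 3 counts outside PSCI.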
